A study of Homo sapiens with 24 samples.

Results

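A set of 40 genes of the DNA damage response and of homologous recombination repair were followed through all 24 RNA sequencing libraries of a study of the kinase TAOK2 in A549 cells, a human lung adenocarcinoma line that the labels call lung epithelial and wild type. The 40 genes were chosen by name, as damage-response, Fanconi anaemia and recombination genes of the kind known to depend on transcription kinases such as CDK12. They are 40 of the 35579 genes to which the deposited transcripts could be summed, and all 40 were expressed well enough to be tested in both tables.

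The whole-cell experiment had 4 groups of 3 libraries. Cells received a pool of control siRNA with no human target or a pool of siRNAs against TAOK2, each at 30 nM by reverse transfection with a lipid reagent, or they received the solvent DMSO or compound 2, which the labels describe as an inhibitor of the TAOK2 kinase. Neither the dose nor the time of compound 2 was known here. The siRNA protocol stands on every sample, and the titles of all 4 groups carry the word mock. The fractionation experiment compared the same control and TAOK2 siRNA pools in total RNA and in the RNA of the nucleus and of the cytoplasm, with 2 libraries in each of its 6 groups. All libraries were made from polyadenylated RNA and read as pairs of 150 bases. The labels state at least 100000000 reads per library, but the deposited values are TPM, the number of copies of a transcript per 1000000 transcript copies of its library, which keep no depth, so the depth behind a value is unknown.

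Cells meet a DNA break by sensing it, signalling it and repairing it. The complex of MRE11, RAD50 and NBN binds the ends, the kinases ATM and ATR signal to CHEK2 and CHEK1, and BRCA1, PALB2 and BRCA2 act in turn to start repair from the intact sister strand. The Fanconi pathway opens crosslinked DNA: its core complex attaches ubiquitin to the pair FANCD2 and FANCI. CDK12 and CDK13 phosphorylate the tail of RNA polymerase II during elongation. Loss of CDK12 activity is known for lowering long damage-response genes and for favouring polyadenylation inside introns, before a gene's last exon.

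The siRNA check came out as labelled in whole cells. TAOK2 stood at 40.3, 38.2 and 34.3 TPM with control siRNA and at 10.6, 12.5 and 8.56 TPM with TAOK2 siRNA, a log2 change of -1.75 (SE 0.15, limma adjusted p = 2.317e-05). With DMSO the kinase stood at 39.7, 40.6 and 37.5 TPM, and with compound 2 at 21.5, 30.7 and 20.5 TPM. In the fractionation table TAOK2 was lower with its siRNA in every fraction, but no change passed the test: the log2 change was -0.89 in total RNA (limma adjusted p = 0.88), -0.57 in nuclear RNA (0.83) and -1.34 in cytoplasmic RNA (0.56). Of 15 lung and A549 markers, 12 averaged at least 1 TPM in the whole-cell table and 11 in the fractionation table. Among them NKX2-1, SFTPC and SFTPB reached at most 0.278, 0.39 and 1.03 TPM in any library. KRT19 ran from 90.8 to 287.5 TPM in whole cells and from 0.0707 to 1.22 TPM in the fractionation libraries. KRT7 and KRT18 were also lower in every fractionation library, while EPCAM, CDH1 and AKR1C1 were higher there. Of the markers of other cell types, CD3E was at 0 in every library and VWF at most 0.280 TPM, while CD68 ran from 11.3 to 63.5 TPM and COL1A1 from 1.19 to 29.6 TPM. LYZ ran from 0.1445 to 1.613 TPM in whole cells and from 4.915 to 54.1 TPM in the fractionation libraries. For CD14 these ranges were 1.168 to 6.597 TPM and 4.608 to 16.45 TPM.

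All changes below are differences of log2(TPM + 1), with the sign of the first-named group minus the second. This scale understates the change of genes at a few TPM. A change was called when its limma adjusted p, by the Benjamini-Hochberg method over all tested genes, was under 0.05. Nothing in the labels says that the libraries of a group came from separate cultures beyond transfection in triplicate, so p-values measure the spread between libraries, which may be technical. Where groups are said not to overlap, this describes single genes and adds little to a call. Its share among all genes within a comparison was not counted. In these bulk samples, fewer cells of a kind and less RNA per cell cannot be told apart. CHEK2, FANCD2 and BRCA1 have partial copies elsewhere in the genome, and ATRIP overlaps TREX1 on the genome, so reads of these 4 genes may be shared with other loci.

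With control siRNA in whole cells the 40 genes spanned a wide range of levels. FANCI, the partner of FANCD2, was highest at 112 ± 5.48 TPM (SD, n = 3), followed by RAD51C at 66.5 ± 3.96, CHEK1 at 60.4 ± 3.50, RAD50 at 59.7 ± 1.63 and BRCA1 at 56.6 ± 3.32 TPM. The levels of CHEK1, RAD50 and BRCA1 lay within their spread of each other. The lowest were FANCB at 2.29 ± 0.331, the helicase WRN at 4.78 ± 0.514, BRCA2 at 5.10 ± 0.192, FANCM at 5.60 ± 0.250 and BARD1 at 5.66 ± 0.502 TPM, of which the last 4 were close to each other. BRCA1 was thus several times more abundant per transcript than BRCA2 and BARD1, the proteins it works with.

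**Figure D1:**
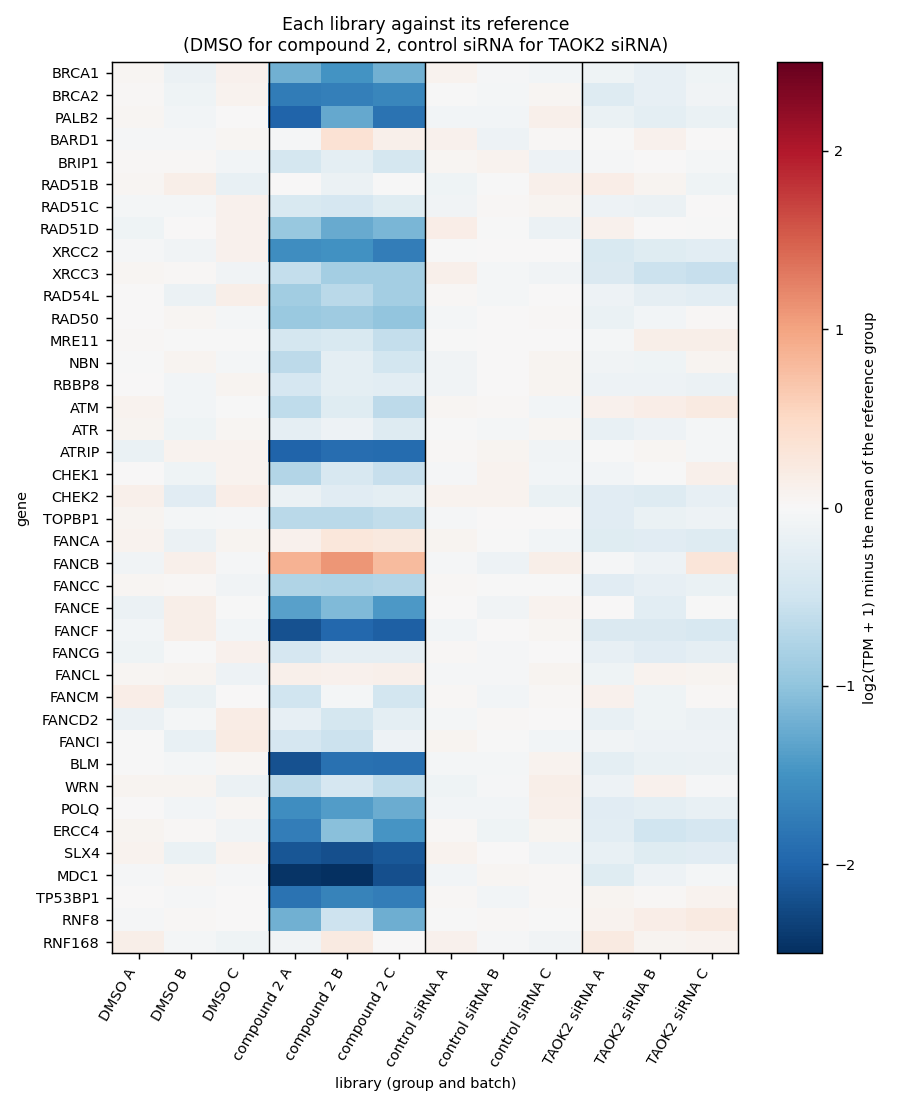
Each row is 1 of the 40 genes and each column 1 whole-cell library. The colour gives log2(TPM + 1) minus the mean of the reference group, which is DMSO for the DMSO and compound 2 columns and control siRNA for the siRNA columns. The 3 compound 2 columns are dark blue (lower) for MDC1, SLX4, FANCF, BLM and ATRIP and red (higher) for FANCB.

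Compound 2 lowered most of the damage-response genes. Against DMSO, 33 of the 40 genes fell and 2 rose. The same test called 51.8% of all 13106 genes lower and 12% higher, so falls were common across the transcriptome, and the members' median change was -0.62 beside -0.31 for all genes. After centring each library on its median gene, 19 members were called lower and 9 higher, beside 3189 lower and 5662 higher among all genes, a centring that moved the median of all genes to 0.19. The 9 were ATR, BARD1, FANCA, FANCB, FANCG, FANCL, RAD51B, RBBP8 and RNF168. With this centring BRIP1, FANCD2, FANCI, FANCM, MRE11, NBN and RAD51C, lower without it, also had positive changes, and ATM (-0.02, limma adjusted p = 0.8309), WRN (-0.06, 0.6398), CHEK1 (-0.07, 0.5059) and TOPBP1 (-0.14, 0.1081) were no longer called. Summed over the 40 genes, the level was 969.3 to 1031 TPM with DMSO and 630 to 666.8 TPM with compound 2.

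The deepest fall was in MDC1, the scaffold that reads phosphorylated H2AX beside a break. It stood at 7.38, 7.85 and 7.35 TPM with DMSO and at 0.550, 0.237 and 0.860 TPM with compound 2, a log2 change of -2.48 (SE 0.13, limma adjusted p = 1.437e-08). Every compound 2 library lay under 1 TPM and every DMSO library over 7. Its partner TP53BP1, which shields broken ends from resection, went from 24.1, 23.3 and 24.1 TPM to 5.94, 6.80 and 6.49 TPM, a log2 change of -1.75 (SE 0.07, limma adjusted p = 1.946e-09). RNF8, the first ubiquitin ligase to follow MDC1, fell by 0.97. The ligase that acts after it, RNF168, had a log2 change of 0.04 (limma adjusted p = 0.755). Of these 4 genes of break-site chromatin, 3 therefore fell, and neighbours in the same cascade did so by very different amounts.

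All 5 helicases, nucleases and the theta polymerase fell, WRN only without the centring on the median gene. SLX4, the scaffold that holds structure-specific nucleases, stood at 8.83, 7.26 and 8.80 TPM with DMSO and at 1.12, 1.02 and 1.12 TPM with compound 2 (log2 change -2.15, SE 0.10, limma adjusted p = 3.969e-09). BLM, the helicase that dissolves joined recombination intermediates, went from 16.4, 16.0 and 17.0 TPM to 2.85, 3.79 and 3.73 TPM (-1.98, SE 0.10, limma adjusted p = 5.92e-09). In neither gene did the groups come near each other. ERCC4, the nuclease subunit that unhooks crosslinks, fell by 1.42, POLQ, the polymerase of theta-mediated end joining, by 1.40 and WRN by 0.57 on the log2 scale.

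Of the 11 genes of the BRCA and strand-exchange group, 9 fell, with a group median of -0.80. BRCA2, which acts in strand exchange, stood at 4.83, 4.28 and 5.10 TPM with DMSO and at 0.708, 0.740 and 0.860 TPM with compound 2 (log2 change -1.69, SE 0.10, limma adjusted p = 2.537e-08). PALB2, which joins BRCA2 to BRCA1, went from 14.97, 13.8 and 14.6 TPM to 2.88, 5.36 and 3.29 TPM, a log2 change of -1.71. BRCA1 went from 55.5, 48.3 and 58.1 TPM to 22.9, 18.4 and 22.8 TPM (-1.30, SE 0.09, limma adjusted p = 1.448e-07). The 3 members of this relay fell without overlap between the groups, and BRCA1 kept the largest share of its level. Among the other strand-exchange genes, XRCC2 fell by 1.60, RAD51D by 1.12, the translocase RAD54L by 0.80, XRCC3 by 0.77, the helicase BRIP1 by 0.38 and RAD51C by 0.37. BARD1, the obligate partner of BRCA1, had a log2 change of 0.15 (limma adjusted p = 0.253) and RAD51B one of -0.04 (0.767).

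The Fanconi core complex was split. FANCF, its adaptor subunit and a gene with a single exon, went from 10.1, 11.85 and 10.2 TPM to 1.598, 1.99 and 1.83 TPM (log2 change -2.06, SE 0.09, limma adjusted p = 3.454e-09). FANCE fell by 1.30, FANCC by 0.75, the translocase FANCM by 0.33 and FANCG by 0.29 on the log2 scale. FANCL, the ubiquitin ligase of the complex, had a log2 change of 0.12 (limma adjusted p = 0.196). Both members that rose belong here. FANCB, which binds FANCL, stood at 2.02, 2.52 and 2.13 TPM with DMSO and at 4.89, 5.88 and 4.57 TPM with compound 2, a log2 change of 0.92 (SE 0.14, limma adjusted p = 6.722e-05). FANCA, which binds FANCG, was at 37.7, 31.8 and 37.1 TPM with DMSO and at 38.4, 43.5 and 42.4 TPM with compound 2 (0.22, SE 0.08, limma adjusted p = 0.03067). The FANCA libraries lay close, with the lowest compound 2 library just above the highest DMSO library, and the call was lost without DMSO replicate 2 (0.14, limma adjusted p = 0.1414) or without compound 2 replicate 2 or 3 (0.18 and 0.20, adjusted p = 0.07529 and 0.07762). FANCM lost its call without DMSO replicate 1 or 3 or compound 2 replicate 1 or 3 (-0.25 to -0.33, limma adjusted p 0.0835 to 0.1482).

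The pair that the core complex ubiquitylates fell little. FANCD2 was at 21.6, 23.4 and 27.6 TPM with DMSO and at 20.7, 17.5 and 20.3 TPM with compound 2 (log2 change -0.29, SE 0.09, limma adjusted p = 0.01566), a call that was lost without DMSO replicate 3 (-0.20, limma adjusted p = 0.07725). FANCI fell by 0.37. The end-sensing genes fell too: RAD50 by 0.93, MRE11 by 0.47, NBN by 0.45 and RBBP8, which starts resection, by 0.32 on the log2 scale.

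The checkpoint genes fell by unlike amounts. ATM was at 22.6, 20.1 and 20.9 TPM with DMSO and at 13.2, 17.1 and 13.1 TPM with compound 2 (log2 change -0.53, SE 0.10, limma adjusted p = 0.0004362). ATR was at 12.4, 10.8 and 12.3 TPM and at 10.0, 10.8 and 9.26 TPM (-0.22, SE 0.09, limma adjusted p = 0.03897), and batch B stood at 10.8 TPM in both groups. The ATR call was lost without DMSO replicate 1 or 3 or compound 2 replicate 1 or 3 (-0.17 to -0.22, limma adjusted p 0.07463 to 0.1285). ATRIP, the subunit that brings ATR to single-stranded DNA, went from 6.85, 8.27 and 8.29 TPM to 1.20, 1.33 and 1.30 TPM (-1.95, SE 0.10, limma adjusted p = 6.775e-09). ATRIP thus fell far more than the kinase it serves. TOPBP1, which activates ATR, fell by 0.65 and CHEK1 by 0.58, while CHEK2 had a log2 change of -0.22 (limma adjusted p = 0.132).

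**Figure D2:**
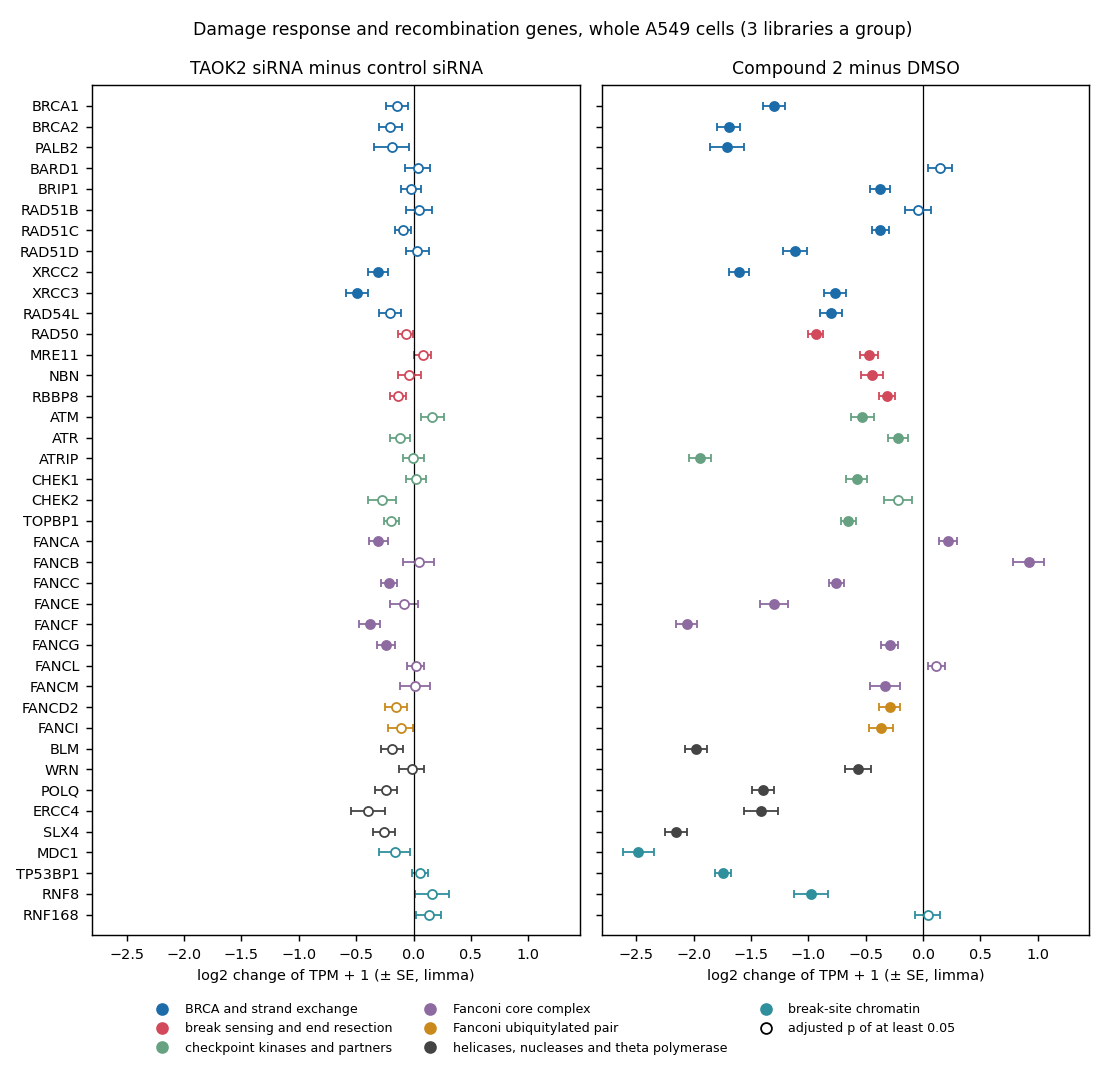
The log2(TPM + 1) change of each of the 40 genes with its standard error in whole cells, for TAOK2 siRNA against control siRNA (left) and for compound 2 against DMSO (right), grouped by role (colour). Filled points passed the test: 35 genes with compound 2, from -2.48 for MDC1 to 0.92 for FANCB, and 6 with the siRNA, down to -0.49 for XRCC3.

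Many other genes of the same pathways were also called lower, beside 51.8% of all genes called lower and 12% higher. No counts after centring on the median gene are given for these lists. Of 42 further recombination and Fanconi genes, 32 fell and 0 rose with compound 2, with RAD52 at -2.39, the nuclease FAN1 at -2.16 and the ubiquitin ligase RFWD3 at -1.68. Of 35 further checkpoint genes, 28 fell and 4 rose, with the mitotic phosphatase CDC25C at -1.80, SHLD2 of the shieldin complex at -1.38 and RHNO1 at -1.21. Repair routes outside recombination fell as well: 14 of 19 end-joining genes, with the polymerases POLL at -1.47 and POLM at -1.46 and the phosphodiesterase TDP2 at -1.13, and 23 of 32 excision and mismatch genes, where 1 rose, with MLH3 at -2.37, PMS2 at -1.53 and ERCC3 at -1.52. Of the 6 transcription kinases and cyclins of the CDK12 group, 4 fell and 2 rose. CDK12 had a log2 change of -2.07 (limma adjusted p = 8.207e-09), CDK9 one of -1.23 and CDK7 one of -0.76.

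Many genes of DNA replication and mitosis fell too, but not all. Of 38 genes that mark S phase and G2/M, 27 fell and 2 rose with compound 2, beside 51.8% of all genes called lower. The falls included the kinesins KIF2C at -1.87 and KIF11 at -1.61 and the licensing factor CDC6 at -1.54. Among replication genes GINS1, CDC45, MCM3, MCM4 and MCM5 also fell. MCM2 (-0.10), MCM6 (-0.13), MCM7 (0.07), GINS2 (0.08) and RRM2 (0.09) were not called, and PCNA rose by 0.55. The median of the 38 was -0.49, beside -0.31 for all genes. No count after centring on the median gene is given for this list. The summed level of the 38 was 4079 to 4699 TPM with DMSO and 3296 to 3621 TPM with compound 2. Many recombination genes are themselves higher in S phase; the part of cell-cycle state in the members' falls was not tested.

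The promoters of 3 members are shown to set a deep fall of a nuclease scaffold (SLX4) and of the BRCA relay (PALB2) beside the largest called rise (FANCB). Each window holds 120 bases before the RefSeq start site, read along the gene's strand in GRCh38.p14. Capitals mark the SP-type box GGGCGG and the NF-Y-type box CCAAT on either strand.
SLX4, chr16:3611607-3611726, minus strand: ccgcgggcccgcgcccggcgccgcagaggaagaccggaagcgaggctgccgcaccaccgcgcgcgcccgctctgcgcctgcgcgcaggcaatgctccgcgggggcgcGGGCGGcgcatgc
PALB2, chr16:23641311-23641430, minus strand: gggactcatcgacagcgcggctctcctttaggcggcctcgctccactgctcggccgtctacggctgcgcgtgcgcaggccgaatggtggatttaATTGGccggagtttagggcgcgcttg
FANCB, chrX:14873070-14873189, minus strand: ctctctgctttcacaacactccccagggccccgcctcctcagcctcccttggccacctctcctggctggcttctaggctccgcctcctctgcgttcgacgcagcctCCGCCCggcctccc

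Promoter windows were found for 37 of the 40 genes. In the 250 bases before the start, GGGCGG on either strand stood in 26 of the 37 (70.3%) beside 42.3% of all 27305 promoters. These 27305 were not limited to the genes tested here, while all of the 37 were tested. CCAAT stood in 16 (43.2%) beside 33.0%, and the cell-cycle element TTTGAA in 5 (13.5%) beside 13.6%. An E2F-type box, searched as TTTCGCGC, TTTGGCGC or TTTCCCGC, was found in FANCC alone of the 37 (2.7%) beside 2.38%. The boxes stood in promoters of genes that fell and of FANCB, which rose.

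Gene sums hide which transcripts changed. With compound 2 several members lost the transcript that ends at the gene's far end and kept or gained transcripts that end earlier. Transcripts were placed by where they end along the gene: late ones end beyond 90% of its span, early ones before 50%. Summed over members, late-ending transcripts held 682.3 to 707.6 TPM with DMSO and 370.5 to 400.7 TPM with compound 2. Early-ending transcripts held 172.4 to 207.9 TPM and 184 to 200.6 TPM, so their groups overlapped. The fall of the members' summed TPM was therefore carried mostly by the late-ending transcripts. Early-ending transcripts took a higher share of the gene's TPM with compound 2 in 27 of 32 members that have them, and their median share went from 13.9% to 21.4%. The same count and median were not made for all genes, so whether this is particular to the members was not tested.

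Of 150 transcripts tested for a change in their share of the gene, in 36 members, 52 in 25 members passed, beside 35.0% of transcripts of all genes. Of these, 24 gained share and 28 lost it. Of the 24 that gained, 12 ended before 50% of the span (50%), beside 29.6% for all genes. Of the 28 that lost, 1 ended there (3.57%, all genes 7.75%) and 21 ended beyond 90%. Early-ending transcripts made up 23.3% of the members' tested transcripts and 15.8% of all, so members had more of them to begin with.

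The last 30 bases of 6 early-ending transcripts that gained share, and the polyadenylation hexamers in them in capitals (AATAAA or ATTAAA), are printed to show where these models stop. They were read from the GENCODE 29 transcripts on GRCh38.
ATR-203: acagtggcctaaagaatcctgttattgaga
TOPBP1-206: aaagaaaatgctgggaaaatcatgtccctt
FANCL-210: ctgtttaaaAATAAAgaatgttttagcaga
FANCM-208: aacccagagaatgttctccataaagtttag
ERCC4-208: tgacaaataatgatgacattatttgtcatc
FANCA-203: ttcggtacttttactgaaacagtgAATAAA

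FANCL-210 and FANCA-203 carry a hexamer in this stretch and the other 4 do not. Within the last 60 bases, 5 of the 12 early-ending transcripts that gained share had a hexamer (41.7%), beside 46.7% of the 150 tested member transcripts and 44.0% of all 40564. For 2 of the 12 the annotation marks the end as not found, so their last base is not a measured cleavage site.

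ATR showed such an exchange. ATR-203, a transcript of the nonsense-mediated decay class that runs from 142560339 to 142578724 on chromosome 3 and ends 14.3% along the gene, was at 0, 0.445 and 0.122 TPM with DMSO and at 3.92, 4.06 and 3.03 TPM with compound 2. Its share of ATR went from 1.70% ± 2.14 to 36.5% ± 3.38 (SD, n = 3; limma adjusted p = 9.367e-06). ATR-201, which encodes the full kinase, went from 10.4, 9.01 and 10.3 TPM to 4.41, 4.85 and 4.88 TPM. The small fall of the ATR gene sum thus held a larger fall of the full-length transcript: late-ending transcripts alone changed by -1.06, beside -0.22 for the sum.

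The same exchange was seen in Fanconi genes. FANCL-210, ending 33.9% along the gene, went from 1.33, 1.72 and 1.00 TPM to 10.1, 9.13 and 10.8 TPM, and its share from 3.51% to 24.2% (limma adjusted p = 1.272e-06), while FANCL-201 went from 52.9% to 36.9%. FANCM-208, ending at 48.5%, went from 31.3% to 71.6% of FANCM. FANCA-203, ending at 23.1%, went from 7.84, 7.46 and 9.50 TPM to 16.8, 21.3 and 17.1 TPM, and from 23.3% to 44.3% of the gene. These 3 genes changed little or rose as sums, and each held an early-ending transcript that gained share. FANCA, called higher as a sum, had a log2 change of -0.58 in its late-ending transcripts.

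TOPBP1-206, a retained-intron transcript ending 28.5% along its gene, went from 0.683, 0.142 and 0.216 TPM to 2.71, 3.78 and 2.58 TPM, and from 0.902% to 12.9% of TOPBP1 (limma adjusted p = 4.972e-06). ERCC4-208, ending at 20.6%, went from 13.4% to 36.6% of ERCC4 while ERCC4-201 went from 50.9% to 8.90%; in TPM, ERCC4-208 overlapped between the groups. The share of SLX4-201 in SLX4 went from 85.6% to 50.4%, and that of BARD1-201 in BARD1 from 59.1% to 13.3%. TPM divides by transcript length, so a short early-ending transcript takes a larger share than its reads alone would give it.

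**Figure D3:**
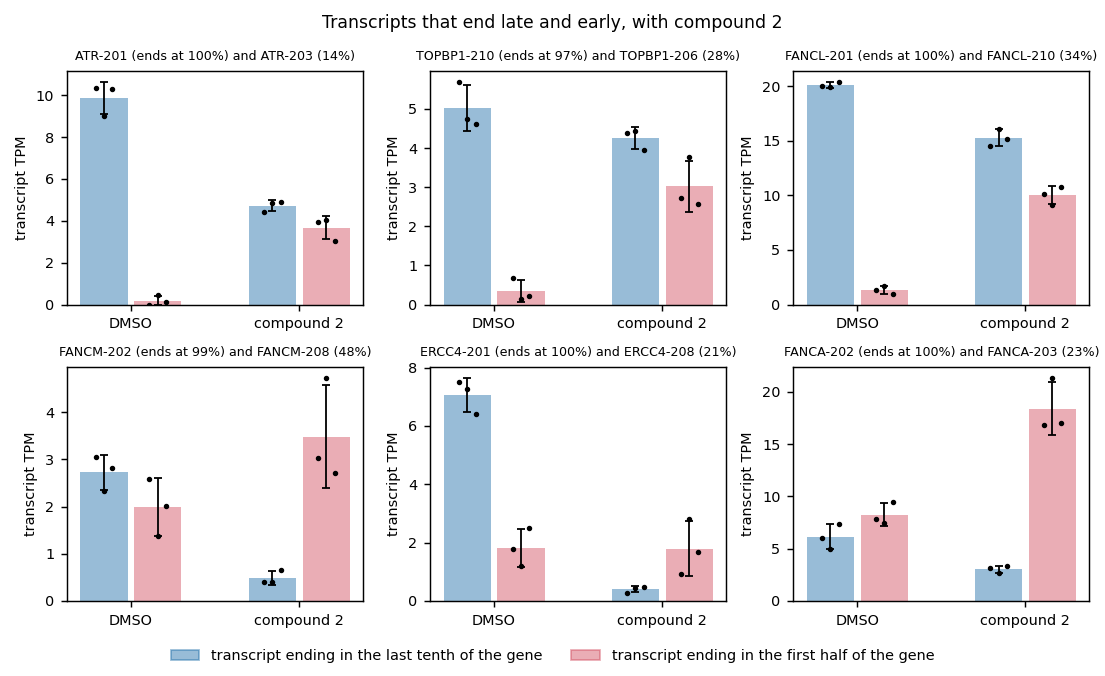
TPM of a late-ending (blue) and an early-ending (pink) transcript of 6 members in the DMSO and compound 2 libraries. Bars are means of 3 libraries with their SD and points are libraries. ATR-203 rose from at most 0.445 TPM to between 3.03 and 4.06 TPM as ATR-201 fell.

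Counted by late-ending transcripts alone, 36 of 38 members fell with compound 2 and 0 rose, beside 58.8% of all genes lower. The members' median was -0.88 and that of all genes -0.43. FANCB and RAD51B could not be tested in this count. The late-ending change was lower than that of the gene sum in 26 of 38 members, and by more than 0.3 in 9: FANCM (-1.60 beside -0.33), ERCC4 (-2.52 beside -1.42), ATR, FANCA, ATM (-1.08 beside -0.53), FANCC (-1.20 beside -0.75), BARD1, FANCL and BRIP1. BARD1, at -0.21, was not called (limma adjusted p = 0.0823). RAD51D went the other way, at -0.71 beside -1.12. For all genes too the median was lower by late-ending transcripts (-0.43, 11714 genes) than by sums (-0.31, 13106 genes). How many of them had this order was not counted.

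TAOK2 knockdown in whole cells changed few of the same genes. With TAOK2 siRNA, 6 of the 40 fell and 0 rose, beside 14.4% of all genes called lower and 7.78% higher. After centring on the median gene 4 members were lower (FANCA, FANCF, XRCC2 and XRCC3) and 0 higher, beside 1385 lower and 1301 higher among all genes; FANCC (-0.17, limma adjusted p = 0.1206) and FANCG (-0.20, 0.1106) were no longer called. The members' share called, 15%, all falls, was near the 14.4% of all genes called lower. In either direction 22.2% of all genes were called. Of the 40 changes 28 were negative, with a median of -0.12 beside -0.05 for all genes, and 12 had an unadjusted p under 0.05. Summed over members the level was 970.8 to 982.2 TPM with control siRNA and 887.4 to 921.8 TPM with TAOK2 siRNA.

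Of the 6 calls, 4 were core subunits of the Fanconi complex and the other two were strand-exchange genes, XRCC3 and XRCC2. XRCC3 went from 55.1, 48.5 and 47.4 TPM with control siRNA to 38.7, 34.2 and 33.6 TPM with TAOK2 siRNA (log2 change -0.49, SE 0.09, limma adjusted p = 0.003329). XRCC2 went from 14.2, 14.5 and 14.5 TPM to 10.8, 11.5 and 11.9 TPM (-0.31, SE 0.09, limma adjusted p = 0.02406). In both genes all knockdown libraries lay below all control libraries.

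FANCF went from 11.4, 12.2 and 12.4 TPM to 9.08, 9.07 and 8.81 TPM (log2 change -0.38, SE 0.09, limma adjusted p = 0.01137). FANCA went from 36.0, 34.0 and 32.4 TPM to 27.4, 27.7 and 27.1 TPM (-0.31, SE 0.08, limma adjusted p = 0.01709). Beside them FANCG, which FANCA binds, went from 36.3, 35.0 and 35.8 TPM to 30.7, 29.2 and 30.2 TPM (-0.24, SE 0.08, limma adjusted p = 0.03998). FANCC, which pairs with FANCE and FANCF, went from 20.0, 19.3 and 19.4 TPM to 15.9, 16.9 and 17.2 TPM (-0.22, SE 0.07, limma adjusted p = 0.03999). The falls were small, and in each of the 4 genes the groups did not overlap. Without any 1 of the 6 libraries only 2 to 3 of the 6 calls were left. FANCF and XRCC3 were called each time, FANCC and FANCG in no such fit (limma adjusted p 0.0667 to 0.1301), XRCC2 only without TAOK2 siRNA replicate 3 (else at most 0.08535), and FANCA only without TAOK2 siRNA replicate 1 or control replicate 3 (else 0.0516 to 0.0737).

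The best-known members did not pass. BRCA1 was at 60.3, 55.6 and 53.8 TPM with control siRNA and at 52.3, 48.6 and 52.1 TPM with TAOK2 siRNA (log2 change -0.15, SE 0.09, limma adjusted p = 0.294). BRCA2 was at 5.07, 4.92 and 5.30 TPM and at 3.87, 4.31 and 4.77 TPM (-0.20, SE 0.10, limma adjusted p = 0.172). FANCD2 was at 23.4, 25.0 and 24.6 TPM and at 21.3, 22.4 and 21.7 TPM (-0.15, SE 0.09, limma adjusted p = 0.271). All 3, and ATM below, had separate groups. The changes of the 3 were larger than their SE but were not called. ATR was at 12.5, 12.1 and 13.0 TPM and at 10.9, 11.4 and 12.2 TPM (-0.12, SE 0.09, limma adjusted p = 0.349), and ATM at 20.6, 20.4 and 18.9 TPM and at 21.6, 22.4 and 23.4 TPM (0.16, SE 0.10, limma adjusted p = 0.255).

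No member transcript changed its share of the gene with TAOK2 siRNA: the limma test called 0 of 150, and 13 had an unadjusted p under 0.05, beside 0.0863% of transcripts of all genes called. The shares to set beside the lists of the wider pathway are 14.4% of all genes called lower and 7.78% higher. Of 42 further recombination and Fanconi genes, 14 fell and 1 rose. The falls included TOP3A, which works with BLM, at -0.97, USP1, the FANCD2 deubiquitylase, at -0.62 and ERCC1, the partner of ERCC4, at -0.46. Of 35 checkpoint genes 9 fell, such as TIPIN at -0.51 and RAD1 at -0.36, and 1 rose, WEE1 at 0.67. Of 19 end-joining genes 7 fell, with LIG3 at -0.75 and XRCC6 at -0.27, and 1 rose, TDP2 at 0.36. Of 32 excision and mismatch genes 7 fell, with FEN1 at -0.37 and MSH3 at -0.33.

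The limma test called 0 of the 6 genes of the CDK12 group with TAOK2 siRNA, and CDK12 itself changed by -0.28 (limma adjusted p = 0.0753). Of the 38 S and G2/M genes 17 fell and 1 rose, with GINS2 at -1.14, CCNA2 at -0.97 and BIRC5 at -0.46, and their summed level went from 3980 to 4010 TPM with control siRNA to 3168 to 3278 TPM. The part of these cell-cycle genes in the members' falls was not tested.

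Between the 2 kinds of control, few members were called. Control siRNA against DMSO called 1 of 40, beside 4.32% of all genes higher and 2.11% lower. CHEK2, the checkpoint kinase downstream of ATM, was at 16.9, 16.7 and 13.8 TPM with control siRNA and at 11.7, 8.52 and 12 TPM with DMSO (log2 change 0.53, SE 0.12, limma adjusted p = 0.02628). The call was lost without DMSO replicate 2 (0.38, limma adjusted p = 0.07417) or without control replicate 1 or 2 (0.48 and 0.49, adjusted p = 0.1198 and 0.1196).

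The effects of the compound and of the siRNA, which rest on separate controls, differed for most members. The difference of the 2 effects was called in 28 of 40 members, beside 54.7% of all genes. In 26 members the compound 2 change was the lower, and in FANCA (0.52) and FANCB (0.87) it was the higher. After centring on the median gene 16 members were lower and 9 higher (ATR, BARD1, CHEK2, FANCA, FANCB, FANCG, FANCL, RBBP8 and RNF168), beside 2766 lower and 4674 higher among all genes, whose median moved to 0.16. By its gene sum FANCA thus fell with TAOK2 siRNA and rose with compound 2. Both calls were lost without some single libraries. Late-ending FANCA transcripts fell with compound 2 (-0.58, limma adjusted p = 0.0003105) and were not called with TAOK2 siRNA (-0.22, limma adjusted p = 0.1529).

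In the fractionation experiment no member passed for TAOK2 siRNA. The limma test called 0 of 40 in total, nuclear and cytoplasmic RNA, beside 0.0%, 0.0145% and 0.0% of all 13751 genes, and 0 for the ratio of nuclear to cytoplasmic RNA, beside 0.0%. At an unadjusted p under 0.05 there were 5 members in total RNA, 1 in nuclear RNA, 3 in cytoplasmic RNA and 0 for the ratio. The labelled batch pairs these libraries, and with the batch as a block 2 members passed in total RNA, both higher: BRCA1 (log2 change 0.80, limma adjusted p = 0.04488) and FANCI (1.02, limma adjusted p = 0.03339). With the block 2.47% of all genes passed in total RNA and 5.9% in nuclear RNA, and the members' share in nuclear RNA was near that of all genes. In nuclear RNA 3 passed with the block: FANCI (0.84, limma adjusted p = 0.03949), RAD51C (0.59, 0.03114) and WRN (-0.68, 0.02792).

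The direction in total RNA was not that of whole cells. In total RNA 34 of 40 members were higher with TAOK2 siRNA, with a median of 0.30 beside -0.0071 for all genes. Of all coding genes, 3278 of 7863 under 50 kb, 1372 of 2313 of 50 to 100 kb and 1684 of 2552 over 100 kb were higher. The members' summed level was 645.7 to 713.6 TPM with control siRNA and 718.4 to 928 TPM with TAOK2 siRNA. BRCA1 was at 14.6 and 11.3 TPM with control siRNA and at 20.7 and 25.9 TPM with TAOK2 siRNA. FANCI was at 43.9 and 49.2 TPM and at 79.2 and 114 TPM. In both genes the higher libraries carried TAOK2 siRNA, whereas in whole cells they carried control siRNA. In all, 11 members were lower in every knockdown library of the whole-cell experiment and higher in every knockdown library of total RNA, beside 3.24% of the 12429 genes in both tables, and 0 members showed the reverse. For the reverse, no share of all genes is given. The S and G2/M genes moved likewise: 37 of 38 were higher in total RNA, none called by limma and 24 at an unadjusted p under 0.05, with summed levels of 1168 to 1420 TPM with control siRNA and 1652 to 2152 TPM with TAOK2 siRNA. Their part in the members' change was not tested, nor was the difference between the 2 experiments.

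By their gene sums, most members leaned to the nuclear RNA. In control cells 21 of 40 were called higher in nuclear than in cytoplasmic RNA and 3 lower, beside 29.8% and 18.9% of all genes, and the members' median was 1.00 beside 0.21. After centring each library on its median gene, which moved the median of all genes to -0.17, 17 were higher and 6 lower. Among all genes 2779 were then higher and 4095 lower. With the labelled batch as a block and no centring, 28 members were higher and 5 lower, beside 5566 and 3811 of 13751 genes. In nuclear RNA, ATM stood at 125 and 140 TPM and in cytoplasmic RNA at 11.4 and 16.6 TPM, a log2 difference of 3.18 (SE 0.40, limma adjusted p = 0.000316). WRN stood at 36.3 and 60.01 TPM and at 4.79 and 6.997 TPM (2.81, SE 0.42, limma adjusted p = 0.000813). Both are long genes with many exons, and their fractions did not overlap.

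FANCD2 was at 31.3 and 49.2 TPM in the nucleus and at 3.87 and 6.74 TPM in the cytoplasm (2.71, SE 0.36, limma adjusted p = 0.000416), and FANCA at 24.7 and 20.5 TPM and at 4.81 and 2.56 TPM (2.37, SE 0.25, limma adjusted p = 0.000139). ATR (2.35), TP53BP1 (2.28), MDC1 (1.73) and POLQ (1.66) followed. The other 13 nuclear members lay between 1.64 for TOPBP1 and 0.93 for RAD50, with BRCA2 at 1.54 and BRCA1 at 1.16. Without 1 of the 4 libraries BLM, BRIP1, FANCM, MRE11, RAD50 and XRCC3 lost their calls at least once (0.71 to 1.26, limma adjusted p 0.05036 to 0.189).

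The 3 mRNAs with the opposite lean have longest mature transcripts of 2591 bases (RAD51C), 2952 bases (FANCF) and 3293 bases (RBBP8), beside 13147 bases for ATM. RAD51C was at 26.8 and 33.0 TPM in the nucleus and at 59.0 and 74.2 TPM in the cytoplasm (-1.13, SE 0.25, limma adjusted p = 0.005811). FANCF was at 9.88 and 10.8 TPM and at 17.3 and 19.9 TPM (-0.78, SE 0.19, limma adjusted p = 0.007875). RBBP8 was at 14.15 and 15.01 TPM and at 22.4 and 28.3 TPM (-0.75, SE 0.24, limma adjusted p = 0.02868). The FANCF call was lost without cytoplasmic replicate 2 (-0.69, limma adjusted p = 0.06143), and that of RBBP8 without it or without either nuclear replicate (-0.59 to -0.79, limma adjusted p 0.08444 to 0.1624). The nuclear libraries also held more mitochondrial mRNA, at 379500 to 424900 TPM beside 108200 to 139100 TPM in the cytoplasm. TPM is relative to the library, so other mRNAs share what these leave. The part of this in the members' values was not tested, and neither was the purity of the fractions.

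**Figure D4:**
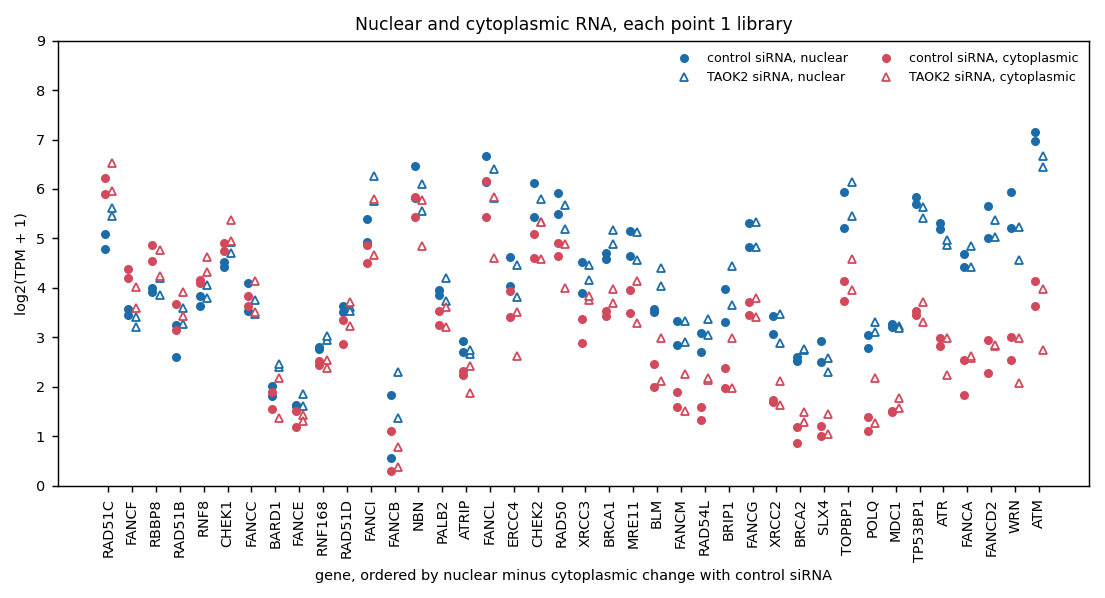
The log2(TPM + 1) level of members in the nuclear (blue) and cytoplasmic (red) libraries of control siRNA (filled) and TAOK2 siRNA (open) cells, with 1 point per library and genes ordered by the nuclear minus cytoplasmic difference in control cells. ATM, at the right, has both control nuclear points above both cytoplasmic points, and RAD51C, at the left, has them below.

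The members' genes run from 2.95 kb for FANCF to 910 kb for RAD51B, with a median of 67.45 kb, and length was set against the change in each comparison. With compound 2 the shorter genes fell more. The 16 members under 50 kb had a median change of -1.21, with 14 called lower and 1 higher (all coding genes of that span 4035 and 993 of 7776), the 14 of 50 to 100 kb one of -0.41 and the 10 over 100 kb one of -0.55. Among all genes the 3 medians were -0.31, -0.38 and -0.27. FANCF, SLX4 (30.4 kb) and MDC1 (18.1 kb) are short and among the deepest falls, while BLM (98.8 kb) and BRCA1 (126 kb) are long and fell too. Across the 40 genes Spearman's rho between span and change was 0.30 and Pearson's r on log span was 0.35, beside -0.03 and 0.00 across all coding genes. Genes are not independent replicates, so these are descriptions. Within batches A, B and C rho was 0.27, 0.28 and 0.36.

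The measure of length mattered. Against the longest mature transcript rho was -0.32 (all genes -0.14) and against the number of exons 0.12 (all genes -0.08). Counted by late-ending transcripts alone, rho with span was 0.19 over 38 members and -0.22 across all coding genes, and the class medians were -1.30, -0.60 and -1.08 beside -0.33, -0.56 and -0.60 for all genes. So longer genes fell more among all genes in this count, and the members did not follow that order. Of the 10 members over 100 kb, 9 fell and 0 rose as sums, beside 1144 and 247 of 2432 coding genes of that span.

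**Figure D5:**
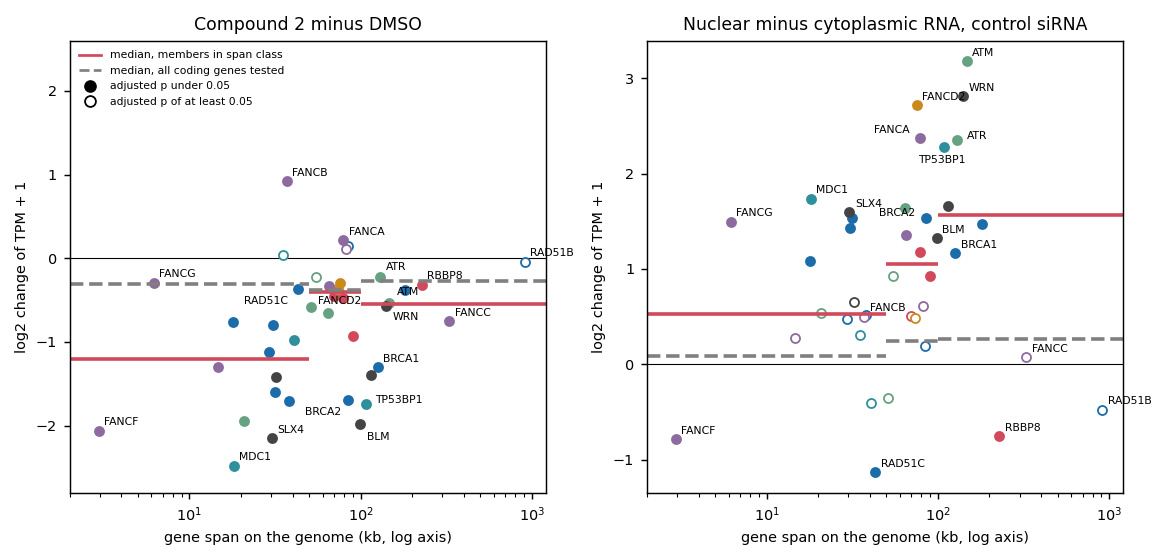
Log2(TPM + 1) change against the span of the gene in kb on a log axis, for compound 2 minus DMSO (left) and nuclear minus cytoplasmic RNA in control cells (right), with 1 point per member coloured by role and filled where called. Red lines are the members' medians per span class and dashed lines those of all coding genes; with compound 2 the members under 50 kb have a median of -1.21 beside -0.31.

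With TAOK2 siRNA rho between span and change was 0.28, beside 0.16 for all coding genes, with class medians of -0.18, -0.09 and -0.07 beside -0.08, -0.03 and 0.03. Within batches it was 0.17, 0.38 and 0.13. In the fractionation table the knockdown gave a rho of 0.10 in total RNA (all genes 0.25), -0.03 in nuclear RNA (-0.0032) and -0.04 in cytoplasmic RNA (-0.09), and control siRNA against DMSO gave -0.05 (-0.02). For nuclear against cytoplasmic RNA rho with span was 0.18 (all genes 0.11), but with mature transcript length it was 0.54 (0.27) and with the number of exons 0.69 (0.35). FANCF, with 1 exon, and ATM, with 63, stand at opposite ends of that order.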

How the data were processed

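Transcript TPM were made by the authors with kallisto on GRCh38.p14, per the submitters' processing notes. What release of kallisto was used was not given in the sources used here. The deposited tables hold 188753 transcripts in 2 tables of 12 libraries, and every library sums to 1000000 TPM. Transcripts were matched by ID to GENCODE 29 (169797, or 89.96%, with 97.0 to 98.3% of the TPM) and summed per gene; the rest were not used here. Genes that averaged 1 TPM or more (13106 in the whole-cell and 13751 in the fractionation table) were tested on log2(TPM + 1) with limma 3.58.1 (statmod 1.5.0, R 4.3.3; trend and robust), as group means over the 12 libraries of a table, with Benjamini-Hochberg adjustment at 0.05. Tables were tested separately. Transcript usage was tested as log2 odds of the transcript in its gene, with an offset of 0.5 TPM, for genes of at least 5 TPM and transcripts of at least 1 TPM. The fits were tested on simulated data. Sequences came from GENCODE 29 transcripts and RefSeq promoters (GRCh38.p14).

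Same-lettered or same-numbered libraries share a batch per the labels, so these pair the samples. Residual correlations within a batch were -0.302 to 0.639 in whole cells (12 of 18 pairs over 0.1) and 0.531 to 0.837 in the fractions (30 of 30). Replicates of a group correlated at 0.984 to 0.997 and at 0.928 to 0.970. The block was an alternative, besides other pseudocounts, filters, scalings, transcript sets and left-out libraries. Full values were given for the 6 largest falls and 4 largest rises called per comparison, and for BRCA1, BRCA2, ATM, ATR and FANCD2 in whole cells; other genes shown per library (such as PALB2, and BRCA1 and FANCI in total RNA), the transcripts and the sequences were chosen after their values were seen. From each pathway list the 3 genes of smallest adjusted p were named, except 1 that is not reported here. Members and lists were chosen with earlier results of these data known.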

Additional observations from a re-analysis of the deposited data

Results flagged for a closer look

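In 11 members the knockdown libraries were all below the controls in whole cells and all above them in total RNA. The same held for 3.24% of the 12429 genes tested in both experiments. The difference between the experiments was not tested. On the log2(TPM + 1) scale, the strand-exchange genes were BRCA1 (-0.15 in whole cells, 0.80 in total RNA), BRCA2 (-0.20, 0.64), PALB2 (-0.19, 0.20), XRCC2 (-0.31, 0.30), XRCC3 (-0.49, 0.46) and RAD54L (-0.21, 0.42). The Fanconi genes were FANCA (-0.31, 0.48), FANCG (-0.24, 0.30) and FANCI (-0.11, 1.02). The helicase BLM (-0.19, 0.84) and the polymerase POLQ (-0.24, 0.62) completed the set. In total RNA each group had 2 libraries, and none of the 11 passed the limma test without the batch block.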

How the results depend on the processing

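The calls for compound 2 (33 lower, 2 higher) and for the knockdown in whole cells (6) were the same with the replicate block. With the block, 2 members passed for the knockdown in total RNA and 3 in nuclear RNA, where 0 did without it; nuclear against cytoplasmic calls went to 28 higher and 5 lower, and the difference between compound and siRNA to 27 members lower with the compound. It changed no other count of calls. With only the groups compared in the fit, the knockdown called 11 members; without any 1 library it called 2 to 3. Control siRNA against DMSO called 0 members with no filter, with only the groups compared or with late-ending transcripts, and 0 to 1 without any 1 library. Spearman's rho with length for the knockdown was 0.0169 by exons. For compound 2 it was -0.321 by mature length (reversed), 0.12 by exons, 0.378 for genes of at least 5 TPM and 0.188 for late-ending transcripts. For nuclear against cytoplasmic RNA it was 0.542 by mature length, 0.693 by exons, 0.261 without RAD51B, 0.267 for genes of at least 5 TPM, 0.159 for late-ending transcripts and 0.106 to 0.2565 without any 1 library. Among single genes, centring on the median gene turned the compound 2 change to 0.29 for ATR, 0.13 for BRIP1, 0.22 for FANCD2, 0.22 for FANCG, 0.14 for FANCI, 0.18 for FANCM, 0.0378 for MRE11, 0.062 for NBN, 0.14 for RAD51C and 0.19 for RBBP8; late-ending transcripts turned FANCA to -0.58, and protein-coding transcripts turned FANCG to -0.36 in nuclear against cytoplasmic RNA. The cause was not tested. TPM keeps no depth, so what depth limits is unknown, and the fractions have 2 libraries a group.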
